A study of Mus musculus with 18 samples.

Results

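Interleukins and their receptors were followed through the open chromatin of a mouse lymphoma and of 3 kinds of normal lymphocyte. The genes were those in the larger deposited table of accessible regions (peaks) whose symbol begins with Il and a digit. Il4, Il2ra, Il2rb, Il2rg, Il7r, Il15, Il15ra and Il21r were left out. This gave 39 of 20326 genes with a peak, and 133 of the 61220 peaks tested. They comprise 15 ligands, 23 receptor chains and Il4i1, an enzyme. All 39 genes and all 133 peaks passed the filter on low counts. Membership used the symbols alone, but the members were chosen with earlier results of these data known. Il1rl1, Il1r1, Il23r, Il5, Il17a, Il21, Il22 and Il7 had no peak in this table and are not described.

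The lymphomas (mPTCL, 9 libraries) are peripheral T-cell lymphomas that formed after T cells without p53 (p53KO) were placed in CD3KO hosts, all on C57BL/6. Cells were taken from the liver and sorted, by markers that the labels leave unnamed. The normal groups were wild type C57BL/6 with 3 libraries each. Splenic cells that were CD3+ thy1+ make up the T group, and splenic CD27- CD11b+ cells the NK group. NKT cells bound CD3 antibody and a CD1d tetramer carrying alpha Gal Cer, and are given as liver cells although their titles carry "Sp". Genotype and gate differ together between the lymphomas and every normal group, and so does the tissue for T and NK cells, so these cannot be told apart. Whether the libraries within a group stem from different mice is not stated, so p-values rest on a spread between libraries that may be technical.

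Interleukins are secreted proteins by which leukocytes instruct each other. Most act through paired receptor chains of which some are shared: the common gamma chain for IL-2, IL-4 and IL-9, the common beta chain for IL-3, and gp130 (Il6st) for IL-6, IL-11 and IL-27. The IL-1 and IL-18 receptors signal through MyD88 and NF-kappaB, while most others signal through JAK kinases and STAT factors. In lymphocytes, IL-12 and IL-18 together drive interferon-gamma production, and IL-4, IL-9 and IL-13 belong to type 2 responses. ATAC-seq reads where the Tn5 transposase can enter DNA. It does not measure RNA or protein, and open chromatin at a gene is not its expression.

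Lymphoma libraries held 670358 to 4844441 counts in peaks. T libraries held 979441 to 2358023, NKT libraries 1433904 to 9097014 and NK libraries 417107 to 596601. The member peaks held between 0.155% and 0.203% of them, or 693 to 18493 counts a library. In the shallow NK libraries 22 to 34 of the 133 member peaks had no count. The NK marker list (6 of its 7 genes had a peak) summed to 164 to 301 CPM in the lymphomas, 207 to 272 in NK, 111 to 121 in NKT and 41.6 to 88.7 in T cells. T-cell markers (7 of 7) summed to 228 to 375 CPM over lymphomas, against 378 to 489 for T, 713 to 797 for NKT and 145 to 219 for NK libraries. The NKT list (5 of 5) reached 567 to 633 CPM in NKT cells, 234 to 341 in the lymphomas, 248 to 267 in T and 252 to 293 in NK cells. Hepatocyte markers were low, at 29.2 to 78.5 CPM in the lymphomas against 3.96 to 13.9 in NKT cells. T cells held 11.8 to 20.7 CPM of these and NK cells 19.4 to 53.8. Only 2 of the 6 hepatocyte genes had a peak, and Alb, Apoa1 and Ttr had none. B-cell markers (4 of 7, with no peak at Ms4a1 or Cd79a) spanned 117.8 to 229 CPM over lymphomas, 42.9 to 53.1 in NKT, 64.2 to 83.1 in T and 120.7 to 176 in NK cells. The myeloid and Kupffer list (5 of 10, with no peak at Csf1r, Lyz2 or Adgre1) ran from 100.6 to 143.5 CPM in the lymphomas. It ran from 54.1 to 67.0 in NKT, 59.7 to 69.9 in T and 102.8 to 159.9 in NK cells. Endothelial and stromal markers (5 of 8) ran from 142 to 238 CPM in the lymphomas and 99.0 to 116 in NKT cells. T cells held 140 to 180 CPM of them and NK cells 136 to 261, both overlapping with the lymphomas. The erythroid list (3 of 5) ran from 73.6 to 105 CPM in the lymphomas, 111.4 to 115 in NKT, 84.1 to 115 in T and 71.1 to 90.2 in NK cells. The lists share genes: Itgam is in the NK and the myeloid list, Cd3e in the T and NKT lists and Klrb1c in the NKT and NK lists. Itgam encodes CD11b, by which the NK cells were sorted. The part of such cells in any result was not tested. In sorted pools, fewer cells with an open site and a site less open in each cell cannot be told apart. The 3 peaks of Trp53 held 54.5 to 107.5 CPM in the lymphomas and 20.6 to 67.8 in the normal libraries. Which part of Trp53 was deleted is not stated, so these values check nothing.

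Against T cells, the lymphomas were more open at Il13, Il10, Il18r1 and Il18rap and less open at Il6ra and Il1rap. Against NKT cells, they were less open at Il12rb2, Il3ra and Il4ra and more open at Il17d, Il20ra, Il9r and Il11ra1. Against NK cells, Il9 and Il13 were more open and Il12rb2 and Il3ra less open. Il10ra, Il10rb, Il17ra, Il17rd, Il18, Il1r2, Il20rb, Il27ra, Il31ra, Il33, Il34 and Il6st passed the test in none of the 6 comparisons at the gene level. A gene's value is the sum of counts over its peaks, given as CPM of the library's TMM-scaled total. Differences are log2 fold changes ± SE from 1 edgeR quasi-likelihood fit over all 18 libraries. A gene or peak is called at a Benjamini-Hochberg adjusted p below 0.05 over all genes or peaks.

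**Figure D1:**
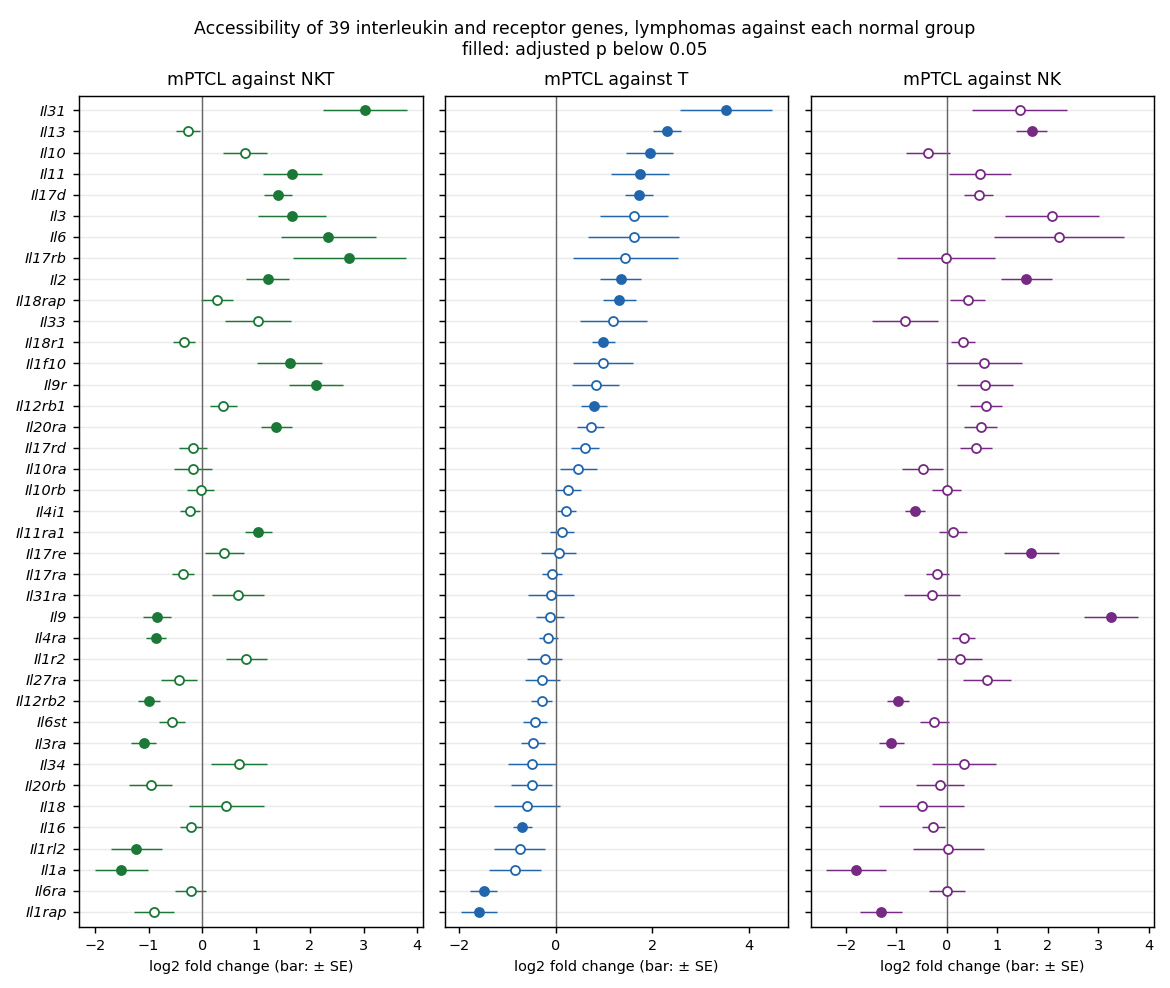
Log2 fold change (x axis, bar ± SE) of each of the 39 genes (y axis) between the 9 lymphomas and the 3 libraries of NKT, T or NK cells. Filled points have an adjusted p below 0.05: 11 higher and 6 lower against NKT, 9 and 3 against T, 4 and 5 against NK cells.

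At the gene level, 11 of 39 members were higher in lymphomas than in NKT cells and 6 were lower, where 25.5% and 20.2% of all genes were called in those directions. The shares of the members were 28.2% and 15.4%. Against T cells 9 were higher and 3 lower, beside 16.2% and 14.7% of all genes. Against NK cells 4 were higher and 5 lower, beside 11.2% and 10.3%. Between normal groups, NK against NKT cells gave 0 higher and 3 lower (8.51% and 6.28% of all genes). That count of 0 comes from edgeR, 12 members had an unadjusted p below 0.05 in either direction there, and DESeq2 called 3 higher. NK against T cells gave 2 and 2 (3.29% and 2.19%), and NKT against T cells 2 and 1 (2.32% and 2.23%). Most of these shares lie near the background. The share of calls that were higher moved by over 10 percentage points with the scaling in 4 comparisons. The shares of all genes above are those of the main fit. Counts under the other scalings therefore do not show whether members differ from all genes. Against NKT cells cyclic loess gave 4 higher and 5 lower. Against NK cells TMM within each chromosome gave 6 and 3 and cyclic loess 8 and 5. NK against NKT cells gave 1 and 3 with RLE factors or library totals, 2 and 3 within chromosomes, 3 and 3 with DESeq2 and 1 and 4 with cyclic loess. NKT against T cells gave 2 and 2 within chromosomes or with DESeq2 and 2 and 0 with cyclic loess. Smaller shifts were seen for NK against T cells, with 3 and 2 by DESeq2 and 2 and 3 by cyclic loess, and for lymphomas against T cells, between 7 and 2 and 11 and 3. Ligands had a median log2 difference of 1.04, 1.34 and 0.67 against NKT, T and NK cells, and receptor chains of -0.18, -0.08 and 0.03. The median of all genes was 0.06, 0.12 and 0.13. It is not matched for mean level, so it does not show whether ligands differ from genes as weakly covered as they are.

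Weakly covered genes differed as a class. When all genes were cut into 10 classes of equal size by mean level, the 2032 genes of the lowest class had a median log2 difference between lymphomas and NKT cells of 2.1. In the next 2 classes it was 1.10 and 0.83. Il6, Il17rb, Il31, Il1f10, Il18 and Il33 lie in the lowest class, Il3, Il1a, Il1rl2, Il31ra and Il34 in the second, and Il11, Il9r and Il17re in the third. In the upper 5 classes that median lay between -0.17 and -0.30. Against T cells the lowest class had a median of 1.23, and against NK cells of 0.39. The ligands Il6, Il31, Il1f10, Il18, Il33, Il3, Il1a, Il34 and Il11 are thus among the weakly covered members. So are the receptor chains Il17rb, Il1rl2, Il31ra, Il9r and Il17re, a smaller share of their kind. The part of mean level in the ligand and receptor medians above was not tested.

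At single peaks, 15 of 133 were higher in lymphomas than in NKT cells and 34 lower, beside 23.2% and 19.4% of all peaks. The balance of these calls rests on the scaling: it was 34 higher and 16 lower with RLE size factors, 30 and 21 with library totals, 20 and 21 with TMM within each chromosome, 38 and 17 with DESeq2, and 2 and 11 with cyclic loess. The median of all peaks in that comparison was 0.27 with TMM, 0.74 with RLE, 0.64 with totals and -0.03 with cyclic loess. The shares of all peaks in this paragraph are those of the main TMM fit. Counts under the other scalings therefore do not show whether members differ from all peaks. Against T cells 14 were higher and 12 lower (8.27% and 11.4% of all peaks). With RLE factors the split was 19 and 8, with totals 18 and 9, within chromosomes 16 and 9, and with DESeq2 31 and 9. Against NK cells 6 were higher and 5 lower (6.03% and 3.76%), or 12 and 6 with cyclic loess and 6 and 3 within chromosomes. NK against NKT cells gave 4 and 14 (6.81% and 10.3%), which became 7 and 5 with RLE factors or totals and 12 and 5 with DESeq2. NK against T cells gave 2 and 4 (2.02% and 2.77%), against 3 and 3 with RLE factors, 5 and 4 with DESeq2 and 8 and 6 with cyclic loess. NKT against T cells gave 13 and 4 (3.48% and 1.75%), or 5 and 0 with cyclic loess. Of the 34 lower peaks against NKT cells, 6 kept their call under all 5 other scalings and without any 1 library. All peaks were also cut into 10 classes by mean level. Against NKT cells the median was 2.62, 1.85 and 1.20 in the lowest 3 classes and -0.61 and -0.73 in the highest 2. The lowest and highest class had medians of 1.52 and -0.51 against T cells, and of 0.51 and -0.09 against NK cells. The part of mean level in the differences at single peaks was not tested.

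By deposited class, 14 of 35 member promoter peaks were lower in lymphomas than in NKT cells and 4 were higher, where 30.3% and 12.3% of all promoter peaks were called so. Of 49 intronic member peaks 8 were higher and 11 lower, beside 26.0% and 16.5% of all intronic peaks. Flanking member peaks, which lie just outside the gene, numbered 23. Of these 6 were higher in lymphomas than in T cells and 7 higher in NKT than in T cells, beside 8.88% and 3.81% of all flanking peaks. Between lymphomas and NKT cells 1 was higher and 5 lower, beside 28.7% and 10.6%. Against NK cells 3 were higher and 0 lower, beside 6.95% and 1.40%. Several peaks can belong to the same gene, so these counts are not of separate genes.

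The receptors of IL-12 and IL-18 showed site-by-site differences. Il12rb2 encodes the chain that makes the IL-12 receptor signal, through STAT4. Its 8 peaks summed, in CPM, to values from 72.9 to 143 with a median of 92.9 in the lymphomas. The NKT libraries held 192, 196 and 178 CPM, the T libraries 135, 114 and 100.4 and the NK libraries 115, 183 and 255. All 9 lymphomas were below all 3 NKT libraries, while they overlapped with T and NK cells. The difference was -1.0 ± 0.20, adjusted p = 0.000399 against NKT cells and -0.97 ± 0.22, adjusted p = 0.00223 against NK cells. The second was lost without NK 3 (adjusted p = 0.0789). Against T cells it was -0.29 ± 0.22, adjusted p = 0.305.

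Single sites of Il12rb2 differed from T cells in opposite directions. At the start of the gene (peak chr6:67375974-67376474 in mm10, positions as deposited, promoter class, centre 36 bp before the RefSeq start) the lymphomas held, in CPM, from 20.7 to 46.0 with a median of 29.9. T cells held 12.8, 14.7 and 15.9 CPM, NKT cells 38.4, 61.0 and 54.9 and NK cells 45.6, 122 and 116. Every lymphoma was above every T library at this site, and all but the most open lymphoma were below every NK library. The difference was 1.02 ± 0.33, adjusted p = 0.0267 against T cells and -1.68 ± 0.28, adjusted p = 0.00019 against NK cells. The first was lost without T 1, T 2 or T 3 (adjusted p from 0.0579 to 0.0807). Normal NK and NKT cells were themselves more open than T cells here (NK 2.69 ± 0.39, adjusted p = 0.000218, NKT 1.83 ± 0.37, adjusted p = 0.00225). A call against NKT cells (-0.81 ± 0.27, adjusted p = 0.0152) was lost under each of the 5 other scalings.

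Within the introns the order was another. At chr6:67317686-67318186, 58252 bp past the start, the lymphomas held, in CPM, from 0.779 to 10.8 with a median of 2.40. The T libraries held 23.4, 25.1 and 22.9, NKT 12.8, 17.4 and 16.7 and NK 4.15, 4.22 and 3.17. Lymphomas lay below every T and NKT library and overlapped with NK cells. The difference was -2.61 ± 0.50, adjusted p = 0.000346 against T and -2.02 ± 0.49, adjusted p = 0.00176 against NKT cells. At chr6:67347950-67348450, 27988 bp past the start, NKT cells held 122, 117 and 103 CPM, and the lymphomas held, in CPM, from 13.6 to 50.2 with a median of 34.2, all below them (-1.82 ± 0.25, adjusted p = 2.22e-06). The T libraries held 67.1, 55.4 and 47.7 CPM there and the NK libraries 37.3, 35.8 and 66.6. The peak at chr6:67302562-67303062 was lower in lymphomas than in T cells (-2.70 ± 0.67, adjusted p = 0.00431), a call lost without T 1 (adjusted p = 0.0739).

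The 250 bases before the start of Il12rb2 are shown because they lie whole inside the promoter peak (chr6:67376189-67376438, RefSeq GRCm38.p6, minus strand, read along the gene). Capitals mark a match to TTCNNNGAA, the letters that STAT dimers are known to bind.
Il12rb2: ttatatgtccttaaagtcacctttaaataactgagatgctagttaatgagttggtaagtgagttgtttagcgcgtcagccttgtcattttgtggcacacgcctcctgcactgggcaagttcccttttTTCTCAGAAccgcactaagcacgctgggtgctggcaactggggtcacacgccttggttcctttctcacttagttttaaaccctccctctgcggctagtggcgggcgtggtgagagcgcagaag
The match spans bases 123 to 115 before the start and reads the same on both strands. Such a match stands in 7.06% of 31396 promoter windows of this length. Letters alone show no binding.

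Il12rb1, the chain shared by the IL-12 and IL-23 receptors, was higher in lymphomas than in T cells (0.80 ± 0.27, adjusted p = 0.0276). Its 6 peaks held, in CPM, from 32.7 to 76.7 with a median of 57.0 in the lymphomas and 26.2, 34.7 and 36.8 in T cells. Only the lowest lymphoma overlapped with T cells. The call was lost without mPTCL 5, mPTCL 7, T 1, T 2 or T 3 (adjusted p from 0.0533 to 0.135). NKT cells held 41.6, 48.0 and 41.5 CPM and NK cells 41.0, 12.9 and 44.3, with differences of 0.38 ± 0.25, adjusted p = 0.212 and 0.78 ± 0.31, adjusted p = 0.0707.

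Il18r1 binds IL-18 and Il18rap is its signalling partner. The genes are neighbours on chromosome 1. Summed over 10 peaks, Il18r1 held, in CPM, from 74.7 to 204 with a median of 127 in the lymphomas. T cells held 70.5, 68.7 and 62.0, NKT cells 117, 210.2 and 175 and NK cells 100.5, 108 and 109. Every lymphoma was above every T library, and the lymphomas overlapped with NKT and NK cells. The difference was 0.99 ± 0.24, adjusted p = 0.00286 against T cells, and NKT cells exceeded T cells by 1.33 ± 0.28, adjusted p = 0.00444. With its promoter peak alone, which also overlaps Il1rl1 in RefSeq, the lymphoma difference was -0.05. Il18rap held, in CPM, from 24.7 to 57.6 with a median of 49.0 in the lymphomas and 6.33, 18.8 and 27.4 in T cells (1.32 ± 0.34, adjusted p = 0.00457). Its lowest lymphoma fell inside the T range and the other 8 were above it. In NKT cells it held 29.7, 41.6 and 41.4 CPM, and in NK cells 45.1, 12.9 and 44.3. The NK marker sums given above were also higher in lymphomas than in T cells, and their part in this was not tested.

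Away from its start, Il18r1 peaks differed from NKT cells in opposite directions. At chr1:40497460-40497960, an intronic peak 31704 bp past the start, the lymphomas held, in CPM, from 3.89 to 16.7 with a median of 11.2. NKT cells held 0, 0.151 and 0.548, T cells 0, 1.73 and 4.67 and NK cells 4.15, 4.22 and 6.35. All 9 lymphomas were above all NKT libraries, by 4.87 ± 0.81, adjusted p = 3.29e-05. The lymphomas overlapped with T cells, and that difference, 2.07 ± 0.68, adjusted p = 0.03, was lost without T 1 or T 2 (adjusted p from 0.096 to 0.113). At chr1:40501408-40501908, 554 bp beyond the gene, T cells held 1.07, 5.19 and 3.74 CPM and NKT cells 30.4, 32.4 and 30.7. The lymphomas held, in CPM, from 11.9 to 41.2 with a median of 19.9 there, all above T cells (2.61 ± 0.56, adjusted p = 0.00107), and NK cells 2.07, 29.5 and 6.35. NKT cells exceeded T cells by 3.15 ± 0.61, adjusted p = 0.00122. Against NKT cells, the intronic peaks 9838 and 13696 bp past the start went the other way from the peak at 31704 bp. NKT cells held 26.4, 55.0 and 48.8 CPM at the first and 34.4, 51.3 and 39.2 at the second. The lymphomas held, in CPM, from 8.49 to 27.9 with a median of 20.6 and from 9.02 to 25.1 with a median of 16.6. The differences were -1.22 ± 0.32, adjusted p = 0.00377 and -1.33 ± 0.34, adjusted p = 0.00307. The first was lost without NKT 2 (adjusted p = 0.06), with RLE factors and with cyclic loess, and the second with cyclic loess.

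**Figure D2:**
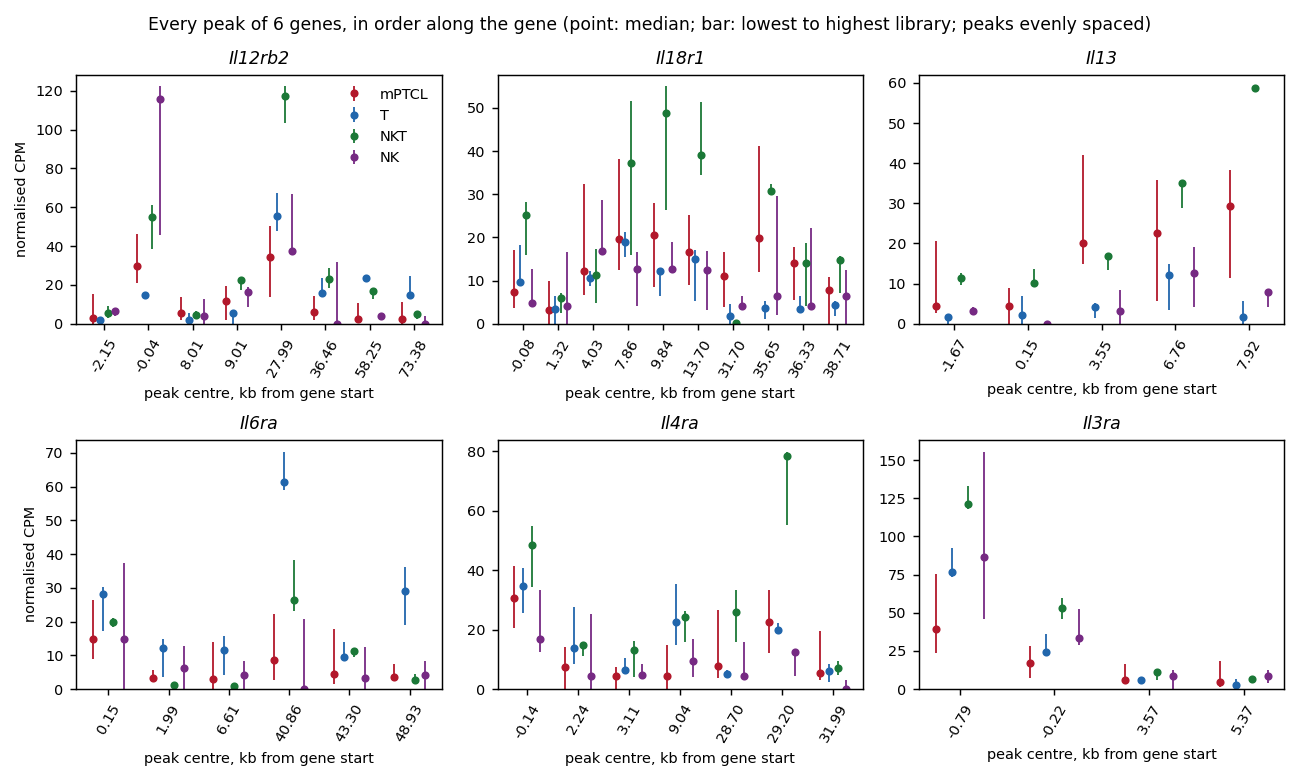
Normalised CPM (y axis) of every peak of 6 genes, ordered by the distance of the peak centre from the gene start in kb (x axis, evenly spaced). Points are group medians and bars run from the lowest to the highest library (9 lymphomas, 3 libraries in each normal group). At the start of Il12rb2 the lymphomas lie above the T libraries, and at the site 58252 bp past it they lie below them.

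Other members of the IL-1 family were weaker or single-peaked. Il1rap, the accessory chain of the IL-1, IL-33 and IL-36 receptors, has 1 peak, at its promoter (chr16:26581305-26581805). At the gene level it held, in CPM, from 2.11 to 53.0 with a median of 29.2 in the lymphomas, 106, 87.5 and 61.6 in T, 52.1, 44.7 and 58.5 in NKT and 65.6, 62.5 and 75.9 in NK cells. Every lymphoma was below every T and NK library. The difference was -1.60 ± 0.37, adjusted p = 0.00216 against T cells and -1.30 ± 0.42, adjusted p = 0.0275 against NK cells. The second was lost without NK 1, NK 2 or NK 3 (adjusted p from 0.0604 to 0.122) and within chromosomes. Against NKT cells it was -0.90 ± 0.37, adjusted p = 0.0501 for the gene. In the fit of peaks, which has scaling factors of its own, the same counts gave -1.20 ± 0.35, adjusted p = 0.00718. That peak call was lost under 4 of 5 other scalings and without NKT 1 or NKT 3 (adjusted p from 0.0517 to 0.0526). At the gene level the lymphomas overlapped with NKT cells through mPTCL 8 alone. mPTCL 6 held the lowest value, far below the other lymphomas. Without it the gene differed from NKT cells by -0.72 (adjusted p = 0.0137), and the gene was also called without mPTCL 1, 2, 3 or 8 (adjusted p from 0.0242 to 0.0431).

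The windows before Il1rap, Il16 and Il3ra are shown as examples of windows that lie whole inside a promoter peak less open in lymphomas than in at least 1 normal group. They are chr16:26581455-26581704 (plus strand), chr7:83655496-83655745 (minus strand) and chr14:14346245-14346494 (plus strand) in RefSeq GRCm38.p6. Capitals mark matches to a letter pattern of NF-kappaB sites, GGGA and CC with 4 bases of any kind between them, on either strand.
Il1rap: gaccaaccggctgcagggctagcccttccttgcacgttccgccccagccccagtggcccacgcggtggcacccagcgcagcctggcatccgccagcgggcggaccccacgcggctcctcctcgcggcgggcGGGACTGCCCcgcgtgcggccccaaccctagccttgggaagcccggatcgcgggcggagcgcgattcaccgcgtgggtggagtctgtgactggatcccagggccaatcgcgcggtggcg
Il16: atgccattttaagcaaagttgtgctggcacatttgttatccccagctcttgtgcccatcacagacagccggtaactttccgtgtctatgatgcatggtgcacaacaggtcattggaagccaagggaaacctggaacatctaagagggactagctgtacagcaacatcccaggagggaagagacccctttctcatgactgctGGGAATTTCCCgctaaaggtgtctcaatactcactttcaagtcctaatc
Il3ra: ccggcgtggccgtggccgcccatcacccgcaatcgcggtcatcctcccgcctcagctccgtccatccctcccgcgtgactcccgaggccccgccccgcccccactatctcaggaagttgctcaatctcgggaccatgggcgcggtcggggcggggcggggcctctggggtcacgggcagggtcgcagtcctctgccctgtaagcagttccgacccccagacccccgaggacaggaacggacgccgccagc
Il1rap has a match at bases 119 to 110 before its start. Il16 has overlapping matches on both strands at bases 49 to 39. The windows of Il18r1, whose peak was also called less open than in NKT cells, and those of Il2 and Il4ra lie inside peaks too and are not printed. The Il3ra window holds none of the 9 patterns searched. The NF-kappaB pattern occurs in 17.8% of all windows. Of the 39 members 32 had a window in the RefSeq table, 39 windows in all, and 8 windows of 7 members lay whole inside a member peak. The other patterns were AGGTGTGA for T-box factors, TGTGGTT for RUNX, TGANTCA for AP-1, CTTTGAT for TCF, AGATAA for GATA, CCGGAAGT for ETS and TGGAAAA for NFAT, on both strands. Among the 39 member windows they were in 0, 4, 7, 0, 5, 0 and 3, and in 1.13%, 4.42%, 6.77%, 3.23%, 9.94%, 2.92% and 5.93% of all windows. NF-kappaB letters were in 7 and STAT letters in 4 member windows.

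Il1a, which encodes the alarm cytokine IL-1 alpha, has 1 peak 3575 bp outside the gene. It held, in CPM, from 0.929 to 5.44 with a median of 3.70 in the lymphomas and 9.24, 10.2 and 9.85 in NKT cells, with no overlap (-1.51 ± 0.49, adjusted p = 0.0144). T cells held 3.62, 4.34 and 9.77 CPM and NK cells 12.3, 21.5 and 3.16. The gene call against NKT cells was lost without NKT 2 or NKT 3 (adjusted p from 0.0561 to 0.0634). Against NK cells the difference was -1.80 ± 0.59, adjusted p = 0.03, lost without NK 1 or NK 2 (adjusted p from 0.0688 to 0.324) and within chromosomes. Il1rl2, the IL-36 receptor, held, in CPM, from 0 to 12.9 with a median of 4.30 in the lymphomas and 11.2, 13.0 and 12.9 in NKT cells, which overlapped. Its difference of -1.23 ± 0.48, adjusted p = 0.0376 was lost without mPTCL 1, mPTCL 7, NKT 1, NKT 2 or NKT 3 (adjusted p from 0.0512 to 0.119) and under 3 other scalings. Il1f10, the gene of IL-38, was called higher than in NKT cells (1.63 ± 0.61, adjusted p = 0.0306), with CPM from 2.72 to 10.2 with a median of 6.13 in the lymphomas and 1.32, 3.14 and 1.35 in NKT cells, which overlapped. That is under the 2.1 median of genes at its level, it was lost without mPTCL 5, mPTCL 7, NKT 1 or NKT 3 (adjusted p from 0.0522 to 0.149), and it was -0.09 with cyclic loess. Il1r2, the decoy receptor for IL-1, Il18 and Il33 were not called. The differences of Il18 were 0.45, -0.60 and -0.50 against NKT, T and NK cells, and those of Il1r2 were 0.82, -0.23 and 0.26. Il33, an alarm cytokine of barrier cells, gave 1.04, 1.19 and -0.83. Without NK 1, Il1r2 was called higher than in NK cells (1.54, adjusted p = 0.0368).

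Il13, a type 2 cytokine made by helper T cells and innate lymphocytes, held, in CPM, from 49.0 to 118 with a median of 76.0 in the lymphomas over 5 peaks. NKT cells held 106, 103 and 96.4, T cells 18.1, 15.9 and 16.9 and NK cells 14.4, 30.2 and 33.2. Lymphomas and NKT cells overlapped, and every library of both was above every T and NK library. The lymphoma difference was 2.31 ± 0.29, adjusted p = 3.90e-06 against T and 1.68 ± 0.31, adjusted p = 0.000411 against NK cells. NKT cells exceeded T cells by 2.58 ± 0.32, adjusted p = 3.68e-05, and NK cells were below NKT cells by a log2 difference of -1.95 ± 0.34, adjusted p = 0.000479. Between lymphomas and NKT cells it was -0.27 ± 0.22, adjusted p = 0.325.

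The Il13 peak most open in NKT cells lay past the gene. The flanking peak chr11:53626535-53627035, 4288 bp outside the gene, held 59.2, 58.8 and 57.7 CPM in NKT cells. T cells held 0, 1.73 and 5.61, NK cells 8.29, 4.22 and 7.93 and the lymphomas from 11.5 to 38.2 with a median of 29.2. The lymphomas were above every T and NK library and below every NKT library. The differences were 3.14 ± 0.50, adjusted p = 4.04e-05 against T, 1.95 ± 0.52, adjusted p = 0.0145 against NK and -1.12 ± 0.32, adjusted p = 0.00681 against NKT cells. The NK difference was lost without NK 2 (adjusted p = 0.0804) and within chromosomes. The NKT difference was lost without NKT 1 (adjusted p = 0.071), with RLE factors, with DESeq2 and with cyclic loess. At the peak of the 3' end (chr11:53630904-53631404) the lymphomas held, in CPM, from 14.9 to 42.2 with a median of 20.01 and NKT cells 17.6, 16.96 and 13.3. T cells held 4.26, 5.19 and 1.40 and NK cells 0, 8.43 and 3.17 there, all below every lymphoma (2.87 ± 0.55, adjusted p = 0.000362 and 2.67 ± 0.63, adjusted p = 0.00621). The Il13 promoter peak (chr11:53634306-53634806) had no count in the 3 NK libraries and 154 in NKT cells, at least 5.38-fold higher in NKT cells by a floor of 3 counts over the group. The call was lost without NK 3 (edgeR adjusted p = 0.0683). Lymphomas held, in CPM, from 0 to 8.95 with a median of 4.51 at that promoter. This peak carries the start of the gene. Floors and count intervals here cover counting error only.

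Il9, the gene of a growth factor for T and mast cells, has 2 peaks, both between 2195 and 3343 bp outside the gene. Its level was, in CPM, from 13.6 to 33.9 with a median of 24.0 in the lymphomas, 28.9, 26.8 and 24.1 in T, 50.1, 43.2 and 39.3 in NKT and 4.10, 0 and 3.16 in NK cells. The NK libraries were below all others, and all lymphomas were below all NKT libraries. Lymphomas exceeded NK cells by 3.26 ± 0.53, adjusted p = 0.000133. NK cells differed by -4.11 ± 0.55, adjusted p = 2.27e-05 from NKT cells and by -3.37 ± 0.57, adjusted p = 0.0011 from T cells. The NK libraries had 2 counts in all at chr13:56476582-56477082 and the lymphomas 391, a ratio of 12.3 (95% exact interval 3.39 to 102). The lower level than in NKT cells, -0.85 ± 0.26, adjusted p = 0.00981, was lost without NKT 1 (adjusted p = 0.0575) and within chromosomes.

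Il9r, the receptor chain for IL-9, was higher in lymphomas than in NKT cells (2.12 ± 0.50, adjusted p = 0.00156). Lymphoma levels ran, in CPM, from 10.6 to 29.4 with a median of 16.7, beside 1.32, 4.88 and 4.77 in NKT cells, with no overlap. T cells held 8.14, 14.5 and 7.52 and NK cells 24.6, 4.31 and 3.16, both overlapping with the lymphomas. All genes at its level had a median difference of 0.83. Without NK 1, whose value was the highest of the NK libraries, Il9r was called higher in lymphomas than in NK cells (2.25, adjusted p = 0.0270).

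Il2 encodes the T-cell growth factor IL-2. Its 5 peaks held, in CPM, from 25.1 to 85.3 with a median of 56.0 in the lymphomas, 18.1, 26.0 and 19.9 in T, 14.5, 22.8 and 30.4 in NKT and 0, 12.9 and 37.9 in NK cells. All lymphomas but mPTCL 5 were above every T and NKT library, and 6 of 9 were above every NK library. The differences were 1.22 ± 0.40, adjusted p = 0.0158 against NKT, 1.34 ± 0.43, adjusted p = 0.0201 against T and 1.58 ± 0.51, adjusted p = 0.0266 against NK cells. They were lost without NKT 1 or NKT 2 (adjusted p from 0.0636 to 0.0894) for NKT, without T 1 or T 3 (adjusted p from 0.0854 to 0.0884) for T and without NK 1 or NK 2 (adjusted p from 0.118 to 0.13) for NK cells, and the first 2 also with cyclic loess. The flanking peak 2377 bp upstream (chr3:37128331-37128831) held, in CPM, from 6.88 to 24.4 with a median of 10.9 in the lymphomas and 0, 2.60 and 3.27 in T cells (2.60 ± 0.72, adjusted p = 0.01), lost without T 1 (adjusted p = 0.0554).

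Il4ra, the receptor chain shared by IL-4 and IL-13, had the most even level over the lymphomas of all members, CPM from 71.8 to 95.3 with a median of 84.7. NKT cells held 120.1, 164 and 174, T cells 93.1, 105 and 85.7 and NK cells 41.0, 51.7 and 104. All lymphomas were below all NKT libraries. The difference was -0.86 ± 0.18, adjusted p = 0.000667, lost with cyclic loess, and NK cells differed from NKT cells by -1.19 ± 0.26, adjusted p = 0.00322. The flanking peak chr7:125581225-125581725, 1751 bp past the gene, held 55.2, 78.6 and 79.9 CPM in NKT cells and 22.4, 19.9 and 19.6 in T cells. NK cells held 12.4, 4.22 and 12.7 and the lymphomas from 12.1 to 33.5 with a median of 22.6. Every NKT library was above every other library there. The differences from NKT cells were -1.64 ± 0.26, adjusted p = 1.79e-05 for the lymphomas and -2.84 ± 0.44, adjusted p = 9.27e-05 for NK cells. An intronic peak (chr7:125561060-125561560) held, in CPM, from 0 to 14.9 with a median of 4.28 in the lymphomas, 14.9, 35.5 and 22.4 in T and 16.0, 26.4 and 24.1 in NKT cells. It was lower than in T (-2.27 ± 0.51, adjusted p = 0.00164) and NKT cells (-2.16 ± 0.48, adjusted p = 0.000894), the first lost without T 2 (adjusted p = 0.0519). Il4i1 encodes a secreted amino acid oxidase. Its peaks lie 19981 bp or less outside the RefSeq gene and carry other symbols too, so its values are uncertain. It was called between lymphomas and NK cells (-0.64 ± 0.20, adjusted p = 0.0221, lost without NK 1 or NK 2 (adjusted p from 0.0578 to 0.151)) and between NK and T cells (0.86 ± 0.25, adjusted p = 0.0401, lost without any of the 6 libraries, adjusted p from 0.0519 to 0.130).

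Il3ra, the IL-3 binding chain, held, in CPM, from 50.0 to 129 with a median of 70.3 in the lymphomas over 4 peaks. NKT cells held 162, 142 and 148, NK cells 82.0, 155 and 213 and T cells 96.7, 115 and 82.7. All lymphomas were below all NKT libraries. The difference was -1.09 ± 0.23, adjusted p = 0.000619 against NKT and -1.10 ± 0.25, adjusted p = 0.0028 against NK cells, the second lost without NK 3 (adjusted p = 0.0944). The lymphomas overlapped with T and NK cells. Both promoter peaks of Il3ra were lower against NKT cells too. At chr14:14345456-14345956 the lymphomas held, in CPM, from 23.9 to 75.0 with a median of 39.3, T cells 76.7, 92.6 and 73.4, NKT cells 133, 121 and 118 and NK cells 45.6, 86.4 and 155. The differences were -1.54 ± 0.26, adjusted p = 4.09e-05 against NKT and -1.19 ± 0.29, adjusted p = 0.00771 against NK cells, lost with cyclic loess and without NK 3 (adjusted p = 0.294) in that order. At chr14:14346026-14346526, whose window was printed above, the difference from NKT cells was -1.57 ± 0.29, adjusted p = 0.000106. Without mPTCL 1, the lymphoma with the highest level, the gene was also called lower than in T cells (-0.63, adjusted p = 0.0286). Its ligand gene Il3 has 1 weak peak, at CPM from 1.72 to 14.8 with a median of 13.6 in the lymphomas and 0, 4.18 and 4.98 in NKT cells. The difference of 1.67 ± 0.64, adjusted p = 0.0334 was lost without mPTCL 4, mPTCL 7, NKT 1, NKT 2 or NKT 3 (adjusted p from 0.0503 to 0.125), within chromosomes and with cyclic loess.

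**Figure D3:**
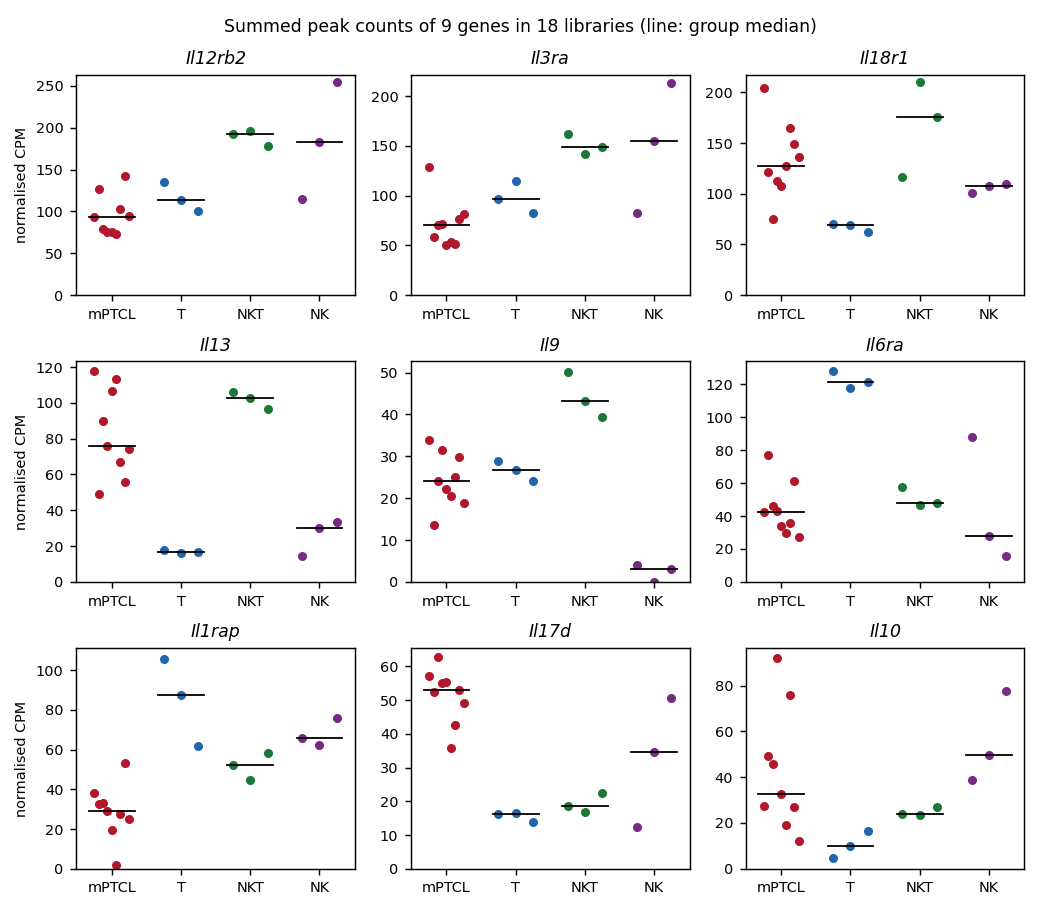
Normalised CPM (y axis) of 9 genes in each of the 18 libraries, by group (x axis), with the group median as a line. For Il13 the lymphomas lie with the NKT libraries, for Il6ra the T libraries lie above all others, and for Il9 the NK libraries lie below all others.

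In the IL-6 and IL-12 family, Il6ra stood out for T cells. It encodes the IL-6 binding chain, which resting T cells carry. Its 6 peaks held 128, 118 and 122 CPM in T cells and CPM from 27.5 to 77.0 with a median of 42.7 in the lymphomas. NKT cells held 57.4, 46.9 and 47.9 and NK cells 88.2, 28.0 and 15.8. Every T library was above every other library. The lymphoma difference was -1.5 ± 0.28, adjusted p = 0.000289. NK and NKT cells differed from T cells by -1.51 ± 0.41, adjusted p = 0.0282 and -1.28 ± 0.36, adjusted p = 0.0368. The NK call was lost without T 1, T 2, T 3, NK 2 or NK 3 (adjusted p from 0.0628 to 0.165) and the NKT call without T 1, T 2, T 3, NKT 1, NKT 2 or NKT 3 (adjusted p from 0.091 to 0.168) and with cyclic loess. The intronic peak chr3:89872084-89872584, 40862 bp past the start, held 70.3, 58.8 and 61.2 CPM in T cells, 38.4, 23.2 and 26.4 in NKT, 20.7, 0 and 0 in NK cells and from 2.80 to 22.3 with a median of 8.49 in the lymphomas. All lymphomas were below all T and NKT libraries. The differences were -2.71 ± 0.41, adjusted p = 2.10e-05 against T and -1.57 ± 0.42, adjusted p = 0.00417 against NKT cells, the second lost without NKT 1 (adjusted p = 0.076) and with cyclic loess. A further peak, deposited as 3' UTR but 4805 bp outside the RefSeq gene (chr3:89864019-89864519), held 36.2, 19.0 and 29.0 CPM in T cells. The lymphomas held, in CPM, from 2.29 to 7.47 with a median of 3.43 (-2.83 ± 0.47, adjusted p = 6.79e-05) and NKT cells 1.60, 4.39 and 2.74 (-3.15 ± 0.65, adjusted p = 0.00269), the second lost with cyclic loess.

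Il6st, which encodes gp130, was not called at the gene level. Lymphoma levels ran, in CPM, from 26.8 to 65.9 with a median of 43.5, beside 77.2, 63.7 and 70.7 in NKT cells (-0.56 ± 0.24, adjusted p = 0.0536). It was called lower without mPTCL 1, 2, 3 or 7 (adjusted p from 0.0228 to 0.0361). Its 3' UTR peak chr13:112507790-112508290 was lower than in NKT cells (-1.69 ± 0.49, adjusted p = 0.00674), a call lost within chromosomes and with DESeq2. Another Il6st peak, starting at 112463926, was called lower, but this was lost under each of the 5 other scalings. Il27ra, the IL-27 receptor, was not called either (-0.44, -0.28 and 0.80 against NKT, T and NK cells). Its promoter peak was lower in lymphomas than in NKT cells (-1.27 ± 0.34, adjusted p = 0.00424), a call lost with RLE factors and with cyclic loess. Il31ra, a chain of the IL-31 receptor, gave 0.66, -0.10 and -0.29 with no call.

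Il11ra1, the IL-11 receptor, was higher in lymphomas than in NKT cells (1.04 ± 0.26, adjusted p = 0.00219). Over 5 peaks it held, in CPM, from 29.9 to 61.4 with a median of 38.1 in the lymphomas and 17.2, 21.3 and 21.9 in NKT cells, with no overlap. T cells held 32.5, 43.4 and 38.7 CPM and NK cells 28.7, 60.3 and 28.5. All 5 peaks lie 9049 to 52749 bp outside the RefSeq gene, and 2 carry a further symbol, so the link to the gene is the authors' annotation only. Il11 itself was higher than in NKT (1.67 ± 0.55, adjusted p = 0.0157) and T cells (1.75 ± 0.60, adjusted p = 0.028). The lymphomas held, in CPM, from 8.73 to 30.2 with a median of 15.5, 6.60, 5.46 and 5.60 in NKT, 5.42, 8.68 and 3.01 in T and 32.8, 0 and 3.16 in NK cells. These calls were lost without NKT 2 or NKT 3 (adjusted p from 0.0664 to 0.07) and without T 1 or T 3 (adjusted p from 0.0884 to 0.158), and both with cyclic loess. Without NK 1 alone Il11 was called higher than in NK cells as well (adjusted p = 0.00722).

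Il31 and Il6 were among the least covered ligands. Il31 held, in CPM, from 2.72 to 10.2 with a median of 6.55 in the lymphomas, 0, 0 and 1.13 in T, 0, 0.697 and 1.14 in NKT and 0, 0 and 6.32 in NK cells. Every lymphoma was above every T and NKT library. Pooled counts were 171 in the lymphomas and 3 in T cells, a ratio of 11.3 with a 95% exact interval from 3.79 to 55.2. The fitted difference, which depends on a prior count at such depth, was 3.03 ± 0.78, adjusted p = 0.00315 against NKT and 3.53 ± 0.96, adjusted p = 0.00718 against T cells, the first lost with cyclic loess. This peak is 6353 bp outside Il31 and overlaps Lrrc43 in RefSeq, so its link to the cytokine gene is the authors' annotation only. Il6 held, in CPM, from 0 to 16.3 with a median of 3.80 in the lymphomas and 1.32, 1.16 and 1.14 in NKT cells. Its difference of 2.35 ± 0.89, adjusted p = 0.0331 stands beside 2.1 for genes at its level, was lost without mPTCL 2, mPTCL 9, NKT 1, NKT 2 or NKT 3 (adjusted p from 0.0519 to 0.112) and within chromosomes, and was -0.52 with cyclic loess. Without mPTCL 5 its counts did not pass the filter.

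Il10, an inhibitory cytokine gene, was higher in the lymphomas (1.95 ± 0.48, adjusted p = 0.00354) and in NK cells (2.32 ± 0.57, adjusted p = 0.0168) than in T cells. T cells held 4.52, 10.1 and 16.5 CPM and the lymphomas CPM from 12.0 to 91.9 with a median of 32.5 over 4 peaks. NKT cells held 23.8, 23.6 and 27.0 and NK cells 38.95, 49.6 and 77.5. Of the lymphomas 8 were above every T library and 1 was not. The NK call was lost without T 1, T 2 or NK 3 (adjusted p from 0.0621 to 0.109). The flanking peak 781 bp past the gene (chr1:131025751-131026251) held 3.20, 1.73 and 2.34 CPM in T cells and 9.59, 12.6 and 21.5 in NKT cells. It held 16.6, 8.43 and 33.3 CPM in NK cells and CPM from 5.67 to 22.6 with a median of 12.9 in the lymphomas, with T cells below every other library. The lymphoma difference there was 2.52 ± 0.60, adjusted p = 0.0032. The B-cell and myeloid marker sums were likewise higher in the lymphomas and NK cells than in T cells, and their part in this was not tested. The myeloid sum includes Itgam, the CD11b gene of the NK gate. The receptor chains were not called at the gene level. Il10ra, which binds IL-10, gave -0.18, 0.47 and -0.48 against NKT, T and NK cells, and its partner Il10rb gave -0.03, 0.26 and -0.00. An Il10rb peak starting at 91406098 was called lower in lymphomas than in NKT cells, a call lost under each of the 5 other scalings.

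Il20ra, a chain of the receptors for IL-20 and its relatives, was higher in lymphomas than in NKT cells (1.38 ± 0.29, adjusted p = 0.000501). The lymphomas held, in CPM, from 26.9 to 50.7 with a median of 38.5, 7.92, 19.1 and 15.0 in NKT, 23.5, 22.4 and 23.3 in T and 28.7, 30.2 and 14.2 in NK cells. All lymphomas were above all NKT and T libraries. At the intronic peak chr10:19724275-19724775, 11938 bp past the start, the 3 NK libraries had no count. The lymphomas held, in CPM, from 3.15 to 25.2 with a median of 10.3 there, at least 6.11-fold higher by a floor of 3 counts over the NK group (edgeR adjusted p = 0.00651). The same peak held 0, 1.67 and 1.23 CPM in NKT cells (3.29 ± 0.72, adjusted p = 0.000724) and 6.39, 1.73 and 0.935 in T cells (2.17 ± 0.74, adjusted p = 0.0348). Both calls were lost with cyclic loess, and the T call also without mPTCL 5, T 2 or T 3 (adjusted p from 0.0501 to 0.207). The partner chain Il20rb was uneven, with CPM from 13.8 to 117 with a median of 83.2 in the lymphomas. mPTCL 5, 6 and 9 held 26.7, 16.1 and 13.8 and the other 6 between 70.3 and 117. NKT cells held 135, 141 and 139 CPM, all above all lymphomas, and the difference was -0.96 ± 0.40, adjusted p = 0.0511. Il20rb peaks starting at 100460127 and 100461993 were called lower than in NKT cells, calls lost with DESeq2 and with cyclic loess. That at 100458011 was called lower than in T cells, which was lost under each of the 5 other scalings.

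In the IL-17 family, Il17d was the clearest. It encodes a less studied IL-17 ligand. It held, in CPM, from 35.7 to 62.8 with a median of 53.0 in the lymphomas over 5 peaks. T cells held 16.3, 16.6 and 13.9, NKT cells 18.5, 16.96 and 22.4 and NK cells 12.3, 34.5 and 50.6. Every lymphoma was above every T and NKT library, and the NK libraries overlapped with them. The differences were 1.73 ± 0.29, adjusted p = 0.000109 against T and 1.41 ± 0.27, adjusted p = 0.000207 against NKT cells. Against NK cells it was 0.63 ± 0.29, adjusted p = 0.124, and 1.14 (adjusted p = 0.0328) without NK 3. The promoter peak (chr14:57524636-57525136) held, in CPM, from 7.04 to 23.5 with a median of 11.2 in the lymphomas and 0, 0.865 and 1.87 in T cells, with no overlap (3.49 ± 0.82, adjusted p = 0.00267).

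Among the receptors of the family, Il17ra, the shared signalling chain, was not called at the gene level. Its 8 peaks gave -0.36, -0.08 and -0.19 against NKT, T and NK cells. Single peaks were called against NKT cells in both directions. Those starting at 120463050, 120482937 and 120485996 were lower, calls lost under each of the 5 other scalings. That at 120466558 was lower too, lost with RLE factors, totals and cyclic loess. The peak at 120473412 was higher, lost with cyclic loess and without NKT 1 or NKT 2. Il17rd, which also restrains growth factor signalling, was not called at the gene level (-0.18, 0.60 and 0.58). Its intronic peak 57880 bp past the start was higher in lymphomas than in T cells (2.03 ± 0.64, adjusted p = 0.0236), a call lost without T 1 or T 2. Il17re, the receptor chain for IL-17C, has 1 peak and was higher in lymphomas than in NK cells (1.68 ± 0.54, adjusted p = 0.0257). It held, in CPM, from 10.9 to 27.3 with a median of 15.0 in the lymphomas and 4.10, 10.8 and 1.58 in NK cells, and the call was lost without NK 1 or NK 3 (adjusted p from 0.0777 to 0.173). Il17rb, a chain for IL-25, had a call against NKT cells (2.74 ± 1.05, adjusted p = 0.0348) that rests on weak counts. The lymphomas held, in CPM, from 0.794 to 23.2 with a median of 1.86 and NKT cells 0, 0.581 and 0.829. The highest value was that of mPTCL 9. Its peak also carries the symbol Actr8. The call was lost without NKT 1, NKT 2 or NKT 3 (adjusted p from 0.0788 to 0.110), and the difference was -0.33 with cyclic loess. Without mPTCL 4 or mPTCL 9 its counts did not pass the filter.

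Il16 encodes a chemoattractant that binds CD4. It was lower in lymphomas than in T cells (-0.70 ± 0.20, adjusted p = 0.0107), with CPM from 38.4 to 78.4 with a median of 67.8 in the lymphomas and 103, 117 and 85.3 in T cells. All lymphomas were below all T libraries. The gene call was lost without T 2 (adjusted p = 0.0884), within chromosomes and with cyclic loess. At its promoter peak (chr7:83655274-83655774) the lymphomas held, in CPM, from 18.1 to 39.7 with a median of 32.2, T cells 58.6, 79.6 and 63.6, NKT cells 48.8, 62.6 and 67.0 and NK cells 41.5, 46.4 and 34.9. The lymphomas were below every T and NKT library, with differences of -1.20 ± 0.24, adjusted p = 0.000694 and -1.03 ± 0.24, adjusted p = 0.0012. The second was lost with cyclic loess. Il34, a ligand of the CSF-1 receptor, gave 0.68, -0.50 and 0.34 against NKT, T and NK cells with no call at the gene level. Its peak starting at 110749882 was called higher than in NKT cells, and that at 110805630 lower than in T cells. These peak calls held in 3 and 1 of the 12 fits without 1 library.

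Several gene calls outside the main counts appeared when 1 library was left out, and some of these also under another setting. Without NK 1, Il17d was higher in NK than in NKT cells (1.15, adjusted p = 0.0143) and than in T cells (1.47, adjusted p = 0.00790). Without the same library, Il12rb2 was higher in NK than in T cells (0.93, adjusted p = 0.0365) and Il6ra lower in NK than in NKT cells (-1.24, adjusted p = 0.0458). Without NK 3, Il4ra was higher in lymphomas than in NK cells (0.87, adjusted p = 0.0211) and lower in NK than in T cells (-1.03, adjusted p = 0.0444), and Il27ra was lower in NK than in NKT cells (-2.14, adjusted p = 0.0474). Without NK 2, Il3 was called against NK cells, where the remaining libraries had no count. Without mPTCL 3, Il12rb1 was higher in lymphomas than in NK cells (0.83, adjusted p = 0.0422), and without mPTCL 9, Il3 was higher than in T cells (1.76, adjusted p = 0.0427).

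The lymphomas differed among themselves at some members more than at others. The SD of log2 CPM over the 9 lymphomas had a median of 0.47 over members and 0.44 over all genes, and 22 of 39 members were above the latter. It ran from 0.15 for Il4ra to 1.51 for Il6. Il17d, with an SD of 0.24, was the second most even. Il20rb and Il1rap both had an SD of 1.23, and Il10 had 0.91. mPTCL 4 and 7 were the highest for Il10, at 91.9 and 75.7 CPM, and mPTCL 9 the lowest, at 12.0.

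**Figure D4:**
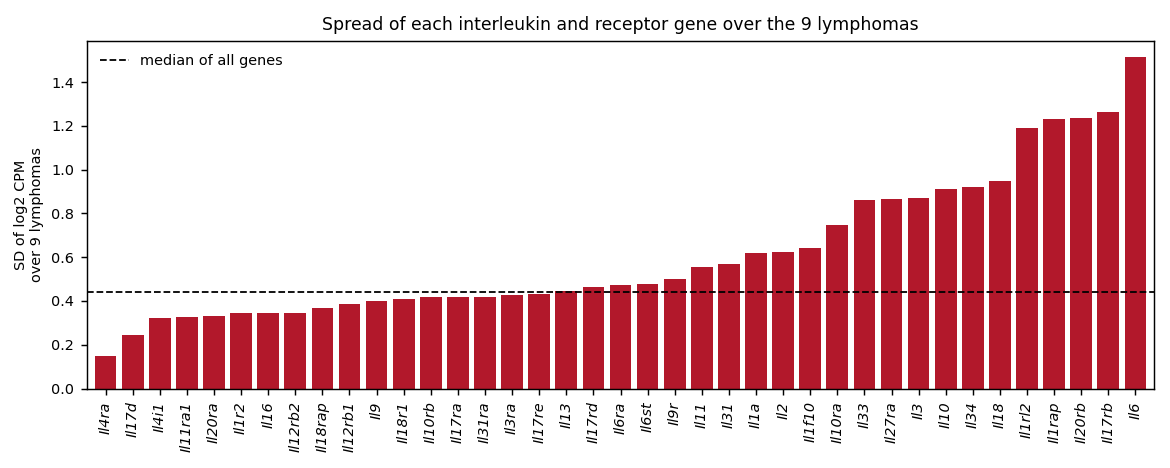
SD of log2 CPM over the 9 lymphomas (y axis) for each of the 39 genes (x axis), with the median of all genes as a dashed line at 0.44. Il4ra is the lowest at 0.15 and Il6 the highest at 1.51.

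The partners that carry the signal were counted from lists of genes outside the rule. Of 13 partner chains and ligands with a peak, 7 were higher and 1 lower in lymphomas than in NKT cells, and 4 and 1 against T cells. Of all genes 25.5% were called higher and 20.2% lower against NKT cells, and 16.2% and 14.7% against T cells, which is the background for each of these lists. Lifr (4.03 ± 0.48 against NKT, 2.11 ± 0.44 against T) and Osmr (2.75 ± 0.37 and 1.44 ± 0.36), receptors that pair with gp130, were among those higher. Csf2rb, the common beta chain, was 1.31 ± 0.34 and 1.39 ± 0.37 higher. Of 14 IL-1 and IL-17 signalling genes, 0 were higher and 7 lower against NKT cells, and 1 and 4 against T cells. Of these genes 9 had an unadjusted p below 0.05 against NKT cells, in either direction. Among the lower were Myd88 (-0.70 ± 0.19 and -0.75 ± 0.19), the adaptor of the IL-1 and IL-18 receptors, and Nfkbiz (-1.12 ± 0.18 and -0.98 ± 0.19). Of 14 JAK, STAT and SOCS genes, 1 was higher and 5 lower against NKT cells, and 2 and 1 against T cells. Stat4, the factor downstream of Il12rb2, differed from NKT cells by -0.75 ± 0.16, and NKT cells exceeded T cells by 1.18 ± 0.21. Against NK cells, where 11.2% of all genes were called higher and 10.3% lower, the edgeR counts of higher and lower genes were 0 and 0 for the partner chains, 2 and 2 for the IL-1 and IL-17 list and 2 and 1 for the JAK list. Of the partner chains 2 had an unadjusted p below 0.05 there. The genes named from these lists are examples from the main fit. Their calls were not followed under other scalings or without 1 library. Their differences were not compared with those of all genes at their mean level, and the part of that level was not tested.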

How the data were processed

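ATAC-seq counts over peaks were taken from the larger of the deposited tables, whose peaks span 500 bp. Per the labels' protocols, 10000 sorted cells were used per library with a Nextera PCR preparation. Per the submitters' processing notes the authors used MACS2 2.1.2, bedtools and edgeR 3.24.3 on mm10. For the aligner, duplicate filter, Tn5 shift, the joining of peaks and whether starts count from 0 or 1, the sources used here give nothing. The deposited count columns are raw counts and were tested. The log2 CPM columns that the authors deposited beside them differed from recomputed values by a median of 0.000784 and were not tested.

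The counts of all peaks with a symbol were summed per gene, and a peak with 2 symbols counted to both. One edgeR 4.0.16 quasi-likelihood fit (R 4.3.3, TMM, filterByExpr, two-sided, no covariate) over 18 libraries in 4 groups gave 6 comparisons, adjusted over 20326 genes or 61220 peaks. SEs are the fold change over the root of F. The biological coefficient of variation was 0.297 for genes and 0.431 for peaks. Gene and peak levels have separate scaling factors, so their differences are not on the same scale. Genes with 1 peak have the same counts in both fits. Against NKT cells Il1a gave -1.51 as a gene and -1.82 as a peak, and Il31 gave 3.03 and 2.72. Against T cells Il31 gave 3.53 and 3.31, and Il1rap -1.60 and -1.81. Against NK cells Il1rap gave -1.30 and -1.24. Alternatives used RLE factors, library totals, TMM within each chromosome, DESeq2 1.42.0, cyclic loess with limma 3.58.1 (prior count of 2), other low-count filters, pairs of groups, the smaller deposited table, promoter peaks and leaving out each library. All libraries differed from each other by more than sampling noise (lowest chi-square per degree of freedom within a group 2.24). The fits were also run on simulated counts with known changes in some features. All simulated libraries shared a common profile apart from these, so that run cannot check calls that move with the scaling or mean level. Lymphomas are numbered in accession order.

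Members and gene lists were chosen with earlier results of these data known. Genes with values are the 8 largest called changes in each direction per lymphoma comparison, the 4 largest between normal groups and a list of receptors and ligands. Il11ra1, Il17rd, Il20ra, Il20rb, Il31ra, Il33, Il34 and some peaks of named genes lie outside this rule. They were added after their values were seen. Promoter windows are those of RefSeq GRCm38.p6, 250 bases before each start. The windows stand in for peak sequences, which were not used here, and motifs were searched in them.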

Additional observations from a re-analysis of the deposited data

Results flagged for a closer look

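In 8 of the 39 genes, 1 lymphoma stood apart from the other 8 on the log2 CPM scale, with a gap to the nearest library, as a share of the whole range, above Dixon's 95% critical value for 9 samples. Chance alone flags about 1 in 20 such groups. The values were for the highest library at Il18 (mPTCL 8, 0.627) and for the lowest at Il1rap (mPTCL 6, 0.666), Il3 (mPTCL 9, 0.610), Il31ra (mPTCL 8, 0.587), Il34 (mPTCL 8, 0.555), Il18rap (mPTCL 3, 0.549), Il27ra (mPTCL 8, 0.549) and Il1rl2 (mPTCL 8, 0.543). The library of mPTCL 8 is the shallowest lymphoma, with 670358 counts, and its part in these values was not tested.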

How the results depend on the processing

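Single named results kept their direction and side of the threshold in 3368 of 3547 gene values and 5896 of 6407 peak values under the alternatives. The called members, both directions together, moved by over 1.5 times as follows, and the cause was not tested. Except where given, these counts and those without 1 library stand without the share of all features called in the same fit. Genes, mPTCL against NKT: 9 with cyclic loess, 5 in the smaller table and 7 with promoter peaks. Against T: 5 and 6 in the last 2 of these. Against NK: 4 with only the 2 groups. NK against NKT: 5 with TMM within each chromosome, 6 with DESeq2, 5 with cyclic loess and 1 with promoter peaks. NK against T: 2 with promoter peaks. NKT against T: 17 with only the 2 groups, where 11.8% of all genes were called higher and 11.7% lower, and 0 with promoter peaks. Peaks, mPTCL against NKT: 13 with cyclic loess, 25 when a mean count of 20 was required, 13 in the smaller table. Against T: 40 with DESeq2, 17 with cyclic loess and 10 in the smaller table. Against NK: 18 with cyclic loess and 7 with only the 2 groups. NK against NKT: 6 with that mean, 8 with only the 2 groups and 4 in the smaller table. NK against T: 14 with cyclic loess. NKT against T: 5 with cyclic loess, 8 with that mean, 34 with only the 2 groups and 8 in the smaller table.

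Leaving out 1 library gave 10 to 19 called genes against NKT, 9 to 14 against T and 6 to 10 against NK cells, and 3 to 6, 1 to 5 and 2 to 2 for NK against NKT, NK against T and NKT against T. For peaks these ranges were 29 to 52, 14 to 29, 9 to 13, 6 to 16, 4 to 8 and 6 to 10. Counts moved by over 1.5 times without any 1 NKT library in mPTCL against NKT (10 genes each, 30, 29 and 30 peaks), and in mPTCL against T without T 1 or T 2 (15 and 14 peaks). For NK against NKT this held without NK 1 (6 genes) and without NKT 1, 2 or 3 or NK 3 (11, 6, 11 and 11 peaks). For NK against T it held without T 1, 2 or 3 or NK 2 or 3 (1, 1, 2, 2 and 2 genes), and for NKT against T without T 1, 2 or 3 or NKT 1, 2 or 3 (8, 7, 7, 10, 6 and 8 peaks). With the replicate block in the normal libraries, NK against NKT gave 6 genes and 7 peaks, NK against T 4 and 8, and NKT against T 4 and 17. Same-numbered libraries had correlations of -0.065 to 0.101, and differently numbered ones of -0.093 to 0.124. With 3 libraries in a group, these values cannot decide whether same-numbered libraries share an animal, day or batch.

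With cyclic loess the differences from NKT cells changed sign at Il17rb (-0.33), Il1f10 (-0.090), Il6 (-0.52) and the Il4i1 peak starting at 44815807 (0.15). With promoter peaks only, Il18r1 against T cells was -0.054. In the NK libraries, the shallowest, 22 to 34 of 133 member peaks had no count.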
